A study of Mus musculus with 14 samples.

Results

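Fxyd2, Vrtn and Usp51 are 3 of the 50686 genes in the count table and of the 16181 in the deposited CPM table. They had the lowest ratios at d12 in embryoid bodies (EBs) of a Dis3l2 knockdown line among protein-coding genes with at least 10 CPM at d12 that were also at least 3-fold lower at d10 and d12. EBs are aggregates in which mouse embryonic stem cells (mESCs) differentiate spontaneously. The genes were chosen by their values at d10 and d12, so that their differences on those 2 days are given as a description, without a test. The comparison is between a pair of stable mESC lines carrying an Osr1-GFP reporter: a control line with a short hairpin RNA against LacZ, a bacterial gene (shLacZ), and a line with a short hairpin RNA against Dis3l2 (shDis3l2), which encodes a 3′ to 5′ exoribonuclease. Each line was sequenced undifferentiated, in medium with LIF and 2i (d0), and every other day from d2 up to d12 after their withdrawal in the presence of serum, with 1 library per line and day and 14 libraries in all. Each line stands for a single stable cell population, and every EB library holds a mixture of cell types, in which fewer cells of a type and less RNA per cell cannot be told apart.

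FXYD2 is the gamma subunit of the Na,K-ATPase, the pump that exchanges sodium for potassium across the plasma membrane. It belongs to the FXYD family of small single-span membrane proteins that tune the pump in a tissue-specific way, and it is best known from the epithelium of the kidney tubule. VRTN (vertnin) is a nuclear DNA-binding protein known for its effect on the number of thoracic vertebrae in mammals, a number set while somites are cut from the presomitic mesoderm. USP51 is a ubiquitin-specific protease that removes ubiquitin from histone H2A and H2B, and with its relatives USP22 and USP27X it relies on the partners ATXN7L3 and ENY2.

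Between 7178712 and 39888099 reads per library were counted on genes, and the floor of 3 counts corresponded to 0.0752 to 0.418 CPM, the count on a gene scaled to a common library size. The targeted transcript was reduced most on the early days: Dis3l2 in shDis3l2 stood at 13.7%, 28.1%, 32.1% and 55.2% of the shLacZ level on the days from d0 to d6, and at 97.1%, 94.99% and 75.5% on those from d8 to d12, where the interval excluded equality at d12 (60.9% to 93.4%) but not at d8 or d10. The ratio of shDis3l2 to shLacZ was lowest at d6 for Fxyd2, at d10 for Vrtn and at d12 for Usp51. On these days the Dis3l2 transcript was at 55.2%, 94.99% and 75.5% of its control level. Any relation of the deficits to the level of Dis3l2 was not tested.

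In the GRCm38 mouse genome Fxyd2 (ENSMUSG00000059412) lies on chr9:45399669-45410278, Vrtn (ENSMUSG00000071235) on chr12:84641019-84651455 and Usp51 (ENSMUSG00000067215) on chrX:153006469-153009416, each on the plus strand, and GENCODE M21 places no other gene over any of them. Usp51 has 1 annotated transcript of 2 exons with 1983 coding bases. Vrtn has 5 transcripts from 3 start sites and up to 2220 coding bases. Fxyd2 has 13 transcripts, of which 4 are protein coding, and at most 192 coding bases. The reads were counted per gene, so that the transcripts of Fxyd2 and Vrtn were not separated.

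The promoter table of RefSeq (GRCm38.p6) held windows for Vrtn and Usp51 but not for Fxyd2. The 250 bases before the start of the gene are shown for these genes because their transcripts were both near absent at d0, rose with differentiation and then parted between the lines. A set of 9 short motifs was searched on both strands, and bases that match one are in capitals.
Vrtn, chr12:84640769-84641018, plus strand: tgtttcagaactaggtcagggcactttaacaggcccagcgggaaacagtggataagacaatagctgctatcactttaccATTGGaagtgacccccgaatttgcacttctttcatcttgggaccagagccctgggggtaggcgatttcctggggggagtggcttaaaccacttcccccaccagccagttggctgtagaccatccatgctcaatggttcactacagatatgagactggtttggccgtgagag
Usp51, chrX:153006219-153006468, plus strand: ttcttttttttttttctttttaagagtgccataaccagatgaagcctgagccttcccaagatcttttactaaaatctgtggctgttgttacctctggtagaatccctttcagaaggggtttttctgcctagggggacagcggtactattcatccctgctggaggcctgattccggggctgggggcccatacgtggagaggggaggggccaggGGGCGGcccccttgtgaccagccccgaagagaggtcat
The capitals in Vrtn mark CCAAT on the minus strand, 171 to 167 bases before the start, a motif present in 33.8% of the 32851 upstream windows of the table. The capitals in Usp51 mark GGGCGG, 38 to 33 bases before the start, which 32.7% of all windows held. Neither of the windows shown matched TATAAA, the TATA box (held by 12.4% of all windows), GTTAAT, part of the HNF1 site (6.43%), AGATAA, the GATA site (9.99%), the E-box CACGTG (6.02%), the octamer ATGCAAAT (1.601%), the TCF site CTTTGAT (3.21%) or the T-box site GGTGTGA (3.33%). These are the windows at the annotated starts of the genes. Of the other Vrtn start sites inside the gene, the window on chr12:84642305-84642554 matched CCAAT, 213 to 209 bases before its start, and AGATAA, 37 to 32 bases before it, both on the minus strand, with 57.6% G and C, and the window on chr12:84642646-84642895 matched none of the motifs. In the windows shown, the share of G and C was 51.6% in Vrtn and 52.8% in Usp51, beside a median of 52.4% over all windows.

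For each day the level in shDis3l2 was divided by that in shLacZ, and in parentheses after each ratio stands its 95% interval (Clopper-Pearson, from the counts), for counting error only. Among protein-coding genes with at least 10 CPM at d12, 38 were at least 3-fold lower in shDis3l2 at both d10 and d12. Fxyd2, Vrtn and Usp51 came first by their ratio at d12, at 0.131, 0.158 and 0.202. The gene just outside, Xlr4b, had a ratio of 0.208, so that the step from the members to the next gene was small.

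Fxyd2 was an mESC transcript that was lost on differentiation and regained in EBs, and the regain was smaller in shDis3l2. In shLacZ, in the order of the 7 days, its level was 15.8, 0.810, 1.13, 15.7, 27.3, 48.6 and 32.3 CPM. In shDis3l2 it was 39.1, 1.14, 0.449, 1.43, 5.36, 10.01 and 4.23 CPM. The knockdown line thus began above the control and ended below it, and from d6 onward every shDis3l2 value was below every shLacZ value. The ratio was 2.47 (2.24 to 2.73) at d0 and 1.40 (0.751 to 2.66) at d2. At d4, on 8 and 9 reads, it was 0.398 (0.134 to 1.16), an interval that still spans equality. It was lowest at d6, at 0.0908 (0.0495 to 0.152), and on the following 3 days stayed at 0.196 (0.157 to 0.243), 0.206 (0.173 to 0.244) and 0.131 (0.0932 to 0.178).

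The timing of the regain differed as well as its height. From d4 to d6 Fxyd2 rose 13.9-fold (7.02 to 33.1) in shLacZ and 3.18-fold (1.33 to 8.43) in shDis3l2. From d6 to d8 the rise was 1.74-fold (1.47 to 2.05) in shLacZ and 3.75-fold (2.19 to 6.99) in shDis3l2, and from d8 to d10 it was 1.78-fold and 1.87-fold. Both lines then fell from d10 to d12, by 1.501-fold (1.29 to 1.74) in shLacZ and 2.37-fold (1.71 to 3.35) in shDis3l2. At d12 the control line held 66.6% of its highest level, which it had at d10, and the knockdown line 10.8% of its own, which it had at d0.

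Vrtn was a transient transcript that peaked at d4 in both lines and declined further in shDis3l2. In shLacZ, from d0 to d12, its level was 0.616, 108, 233, 59.1, 18.8, 42.9 and 19.7 CPM. In shDis3l2 it was 0.127, 90.1, 319.8, 22.2, 1.59, 1.62 and 3.10 CPM. The peak was higher in the knockdown line, and every later value was lower than that of the control on the same day. On the 4 days from d2 to d8 the ratio was 0.833 (0.786 to 0.883), 1.37 (1.30 to 1.45), 0.375 (0.323 to 0.434) and 0.0848 (0.0562 to 0.122). It reached 0.0379 (0.0256 to 0.0535) at d10, the lowest ratio of any member on any day, and was 0.158 (0.105 to 0.228) at d12. At d0, on 24 and 3 reads, it was 0.207 (0.0363 to 0.620).

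From d4 to d12 Vrtn fell 11.9-fold (10.2 to 13.8) in shLacZ and 103-fold (73.6 to 150) in shDis3l2, which left 8.42% and 0.971% of the peak. The decline was steep in the knockdown line on both early steps, 14.4-fold (12.7 to 16.5) from d4 to d6 and 13.9-fold (9.63 to 21.1) from d6 to d8, beside 3.95-fold (3.63 to 4.30) and 3.15-fold (2.76 to 3.60) in the control. From d8 to d10 Vrtn went up again in shLacZ, 2.28-fold (1.96 to 2.67), and was level in shDis3l2, at 1.02 (0.609 to 1.72). From d10 to d12 it fell 2.18-fold in shLacZ and was 1.91-fold (1.15 to 3.19) higher in shDis3l2, so that the ratio at d12 was less extreme than at d10.

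Usp51 was near absent in mESCs, rose up to d4 in both lines, and after d4 went on rising in shLacZ but fell in shDis3l2. Its 2 reads in shLacZ and 0 in shDis3l2 at d0 were at or under the floor, and no fold is given. In shLacZ the next 6 values, from d2 to d12, were 3.39, 5.59, 7.38, 11.7, 14.5 and 13.998 CPM. In shDis3l2 they were 2.26, 6.83, 3.41, 3.93, 4.28 and 2.82 CPM. At d4 the lines did not differ beyond counting error, and from d6 every shDis3l2 value was below every shLacZ value. The ratio at d2 was 0.666 (0.458 to 0.955) and at d4 1.22 (0.855 to 1.78). On the 4 later days it was 0.462 (0.305 to 0.681), 0.335 (0.254 to 0.437), 0.294 (0.221 to 0.389) and 0.202 (0.131 to 0.2996). From d4 to d12 Usp51 rose 2.51-fold (1.76 to 3.66) in shLacZ and fell 2.42-fold (1.63 to 3.73) in shDis3l2, and most of that fall, 2.00-fold (1.38 to 2.98), lay between d4 and d6.

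**Figure D1:**
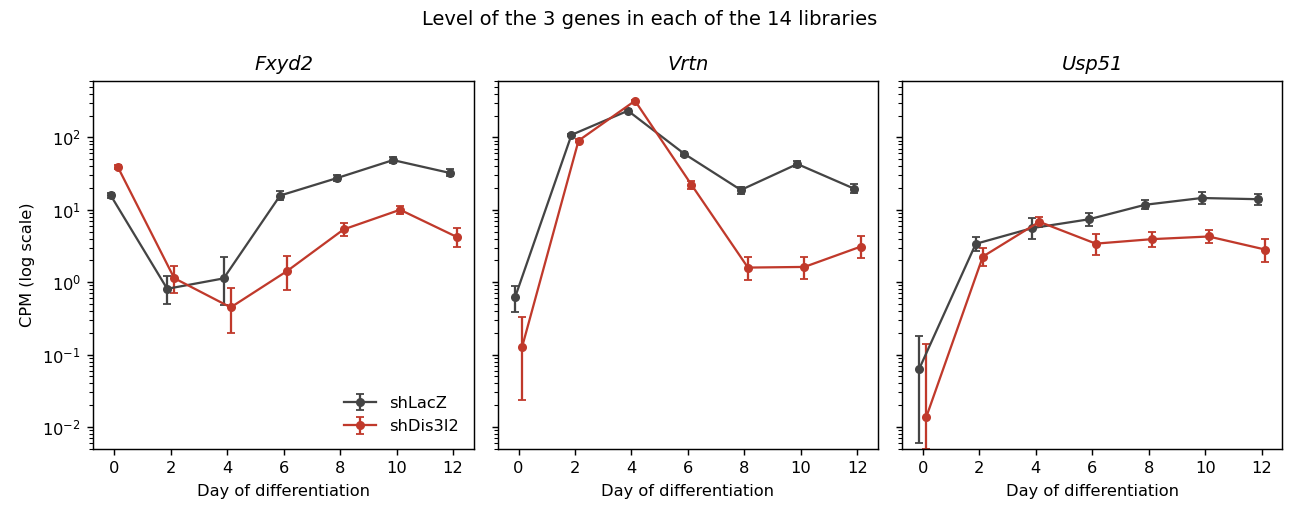
Level of Fxyd2, Vrtn and Usp51 in CPM on a log axis (y) by day of differentiation (x) in shLacZ (grey) and shDis3l2 (red), 1 library per point, with exact 95% Poisson intervals of the counts as bars. Fxyd2 falls and returns, and Vrtn peaks at d4. Usp51 rises up to d4 in both lines, and after d4 it rises on to d10 in grey and stays below its d4 level in red. From d6 the red points lie below the grey points for all 3 genes.

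The 3 genes reached their late deficit by different courses: a smaller regain for Fxyd2, a deeper decline for Vrtn and a halted rise for Usp51. At a ratio of at most 1/3 that held on every later day, the lines parted at d6 for Fxyd2, d8 for Vrtn and d10 for Usp51. With the milder criterion that the upper bound of the interval stays below 1, all of them parted at d6. The day for Usp51 rests on a ratio of 0.335 at d8, just above the limit, and became d8 with TMM or DESeq2 scaling between libraries. Of the members compared, 0 of 1 at d0, 0 of 3 at d2 and 0 of 3 at d4 were at least 3-fold lower, when 2.25%, 0.129% and 1.68% of all compared protein-coding genes were. At d6 it was 1 of 3 beside 4.23% of all genes, and at d8 2 of 3 beside 3.71%. On the last 2 days, which chose the members, it was 3 of 3 by construction, beside 3.12% and 1.5%. Low levels at d6 and d8 were common among genes that met the same late criterion. Of the 38 genes at least 3-fold lower at d10 and d12, 21 were so at d6 and 31 at d8. The counts of members on those 2 days are therefore not independent of the choice.

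**Figure D2:**
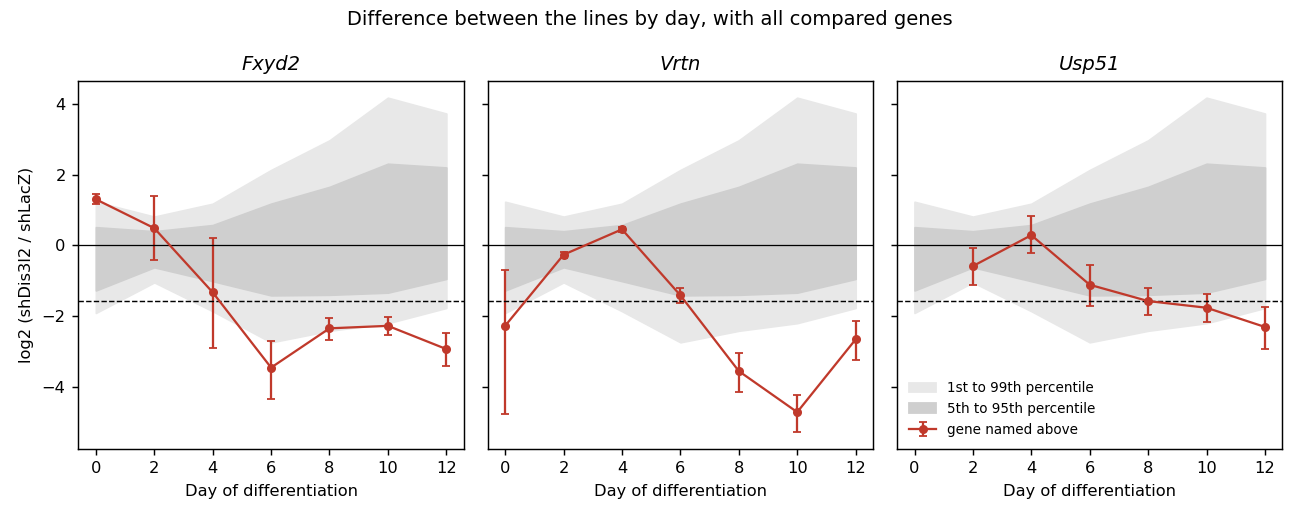
Difference between the lines as log2 of shDis3l2 over shLacZ (y) by day (x) for each gene, with 95% intervals as bars, over the 5th to 95th (dark grey) and 1st to 99th (light grey) percentiles of all compared protein-coding genes. The dashed line marks a 3-fold lower level. Usp51 has no point at d0, and by d8 all 3 genes lie below the 5th percentile and at d12 below the 1st.

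The members were tested only on the 10 libraries of d0 to d8, which did not choose them but come from the same cultures. The days served as replicates with day as a block, so that the lines were not tested against other cultures. Over d0 to d8 together, edgeR called 0 of 19538 genes (0% toward lower), with 2397 genes at an unadjusted p under 0.05, and DESeq2 called 286. The difference of shDis3l2 from shLacZ was -1.01 ± 0.76 (SE) for Fxyd2, -1.06 ± 0.52 for Vrtn and -0.80 ± 0.35 for Usp51 on the log2 scale, with edgeR adjusted p of 0.604, 0.446 and 0.404. These values did not pass the threshold of 0.05 and average days before and after the lines part.

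The second test asked whether the difference between the lines changed from d0, d2 and d4 to d6 and d8. It called 732 genes, 409 toward lower in shDis3l2 (2.09%) and 323 toward higher (1.65%), or 169 and 245 with library totals in place of TMM. Fxyd2 passed, with a change of -3.74 ± 0.61 (SE) on the log2 scale (edgeR adjusted p = 0.0149). Without d0, where Fxyd2 was higher in shDis3l2, the change was -2.67 (adjusted p = 0.0570), and without d6 or d8 it was -3.31 (0.0558) or -4.35 (0.0687), so that the direction held and the call did not. Vrtn changed by -2.30 ± 0.58 with an edgeR adjusted p of 0.0599. It was called with DESeq2 size factors in edgeR (adjusted p = 0.0489), protein-coding genes alone (0.0381), no filter (2.7e-14) and without d0 (0.0452). Without d6 the change was -3.64 (edgeR adjusted p = 0.0199) and without d8 it was -1.43 (0.308), while DESeq2 gave an adjusted p of 0.253. Usp51 changed by -1.26 ± 0.52 (edgeR adjusted p = 0.208) and did not pass under any of the settings tried.

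Per length of annotated exons, the order of the members in shLacZ at d12 was Fxyd2 at 8.08, Usp51 at 6.35 and Vrtn at 5.45 RPKM (CPM per kilobase), and the 95% Poisson intervals of neighbours in this order overlapped. In shDis3l2 it was Usp51 at 1.28, Fxyd2 at 1.06 and Vrtn at 0.860 RPKM, again with overlapping intervals. At d4 Vrtn stood far above the others, at 64.7 RPKM in shLacZ and 88.6 in shDis3l2. The 4005 exon bases counted for Fxyd2 join all its transcripts, so that its RPKM understates the level of its short coding transcripts. Across the 14 libraries the members did not run in parallel: Pearson's r of log2(CPM + 1) was -0.53 between Fxyd2 and Vrtn, 0.10 between Fxyd2 and Usp51 and 0.55 between Vrtn and Usp51, where the libraries of a line share its course.

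The relatives of Fxyd2 were read from a list of 15 FXYD and Na,K-ATPase genes, of which 12 were compared at d12. Fxyd2 was the only one at least 3-fold lower at d12, and 4 of 12 were at least 3-fold higher, beside 8.07% of all genes. The list's median was 0.61 on the log2 scale, beside 0.05 over all compared genes. Fxyd3, another FXYD regulator of epithelia, rose late as Fxyd2 did and was also lower at first, at 15.7 and 4.85 CPM at d8 in shLacZ and shDis3l2, but it narrowed to 64.6 and 36.4 CPM at d12. Fxyd1 (phospholemman, the regulator of heart and skeletal muscle) went the other way, at 0.510 and 7.41 CPM at d12, a ratio of 14.5 (6.13 to 47.2). Fxyd5 (dysadherin) was at 1.303 and 7.22 CPM, a ratio of 5.54 (3.09 to 10.98). Fxyd7 had 0 and 27 reads at d12, at least 8.50-fold higher in shDis3l2 against a floor of 3 reads in the shLacZ library. Fxyd6, a FXYD protein of the nervous system, was at 43.7 and 44.9 CPM at d12, a ratio of 1.03 (0.901 to 1.17).

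Atp1b1, the main beta subunit of the pump in epithelia, was at 320 CPM in shLacZ and 165 in shDis3l2 at d12, a ratio of 0.518. In the test of the change of the line difference, 1 of 12 tested genes of the list passed toward lower, Fxyd2 itself, and 0 passed toward higher. Over all genes, 2.09% passed toward lower and 1.65% toward higher.

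Kidney tubule genes, among which Fxyd2 is usually placed, were mostly too low to compare: 8 of 17 listed genes reached 1 CPM at d12. Of these 2 were at least 3-fold lower in shDis3l2, beside 1.5% of all genes, the tubule cadherin Cdh16 at 1.303 and 0.295 CPM, a ratio of 0.226 (0.0398 to 0.793), and the transcription factor Lhx1 at 9.14 and 2.73 CPM, a ratio of 0.299 (0.189 to 0.456). The median of the list was -1.05 on the log2 scale, beside 0.05 over all compared genes. None of the 9 tested passed the test of the change, beside 2.09% toward lower and 1.65% toward higher of all genes. Umod, Cldn16 and Aqp2, defining genes of tubule segments, had 0 reads in both libraries of d12.

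Of genes of the presomitic mesoderm, the tissue in which VRTN is thought to act, 3 of 15 tested passed the test of the change. Of these, 2 passed toward lower, beside 2.09% of all genes, and 1 toward higher, beside 1.65%. Brachyury (T), which specifies mesoderm, was at 486 and 795 CPM at d4 in shLacZ and shDis3l2, 6.88 and 1.18 at d8, and 13.5 and 6.85 at d12. Its difference changed by -2.68 ± 0.46 (SE) on the log2 scale (edgeR adjusted p = 0.0172). Fgf8, a growth factor of the tail bud, was at 23.8 and 45.3 CPM at d4 and 1.32 and 0.116 at d8, and changed by -4.19 ± 0.77 (edgeR adjusted p = 0.0210). Notch2, a Notch receptor, changed toward higher, by 0.83 ± 0.18 (edgeR adjusted p = 0.0380). The list had medians of -0.03 and -0.25 on the log2 scale at d6 and d8, and ratios of its summed level of 1.09 and 1.06. Notch2 weighed most in that sum, at 93.4 of 224 CPM in shLacZ and 144 of 237 in shDis3l2 at d8. At d6 and d8, 2 of 12 and 2 of 10 compared genes were at least 3-fold lower, beside 4.23% and 3.71% of all genes. At d6, 1 of 12 was at least 3-fold higher, beside 350 of 12983 of all genes. At d10, where Vrtn had its lowest ratio, 4 of 12 compared genes were at least 3-fold lower, beside 3.12% of all genes, and the list's median was -1.05. At d12 it was 1 of 12, beside 1.5% of all genes, namely Nkx1-2, a homeobox gene of the caudal progenitors, at 5.67 and 0.857 CPM. T was at a ratio of 0.507 (0.376 to 0.678) at d12.

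Among 14 H2A deubiquitinases and their partners, the deficit of Usp51 was shared by 1 other gene. Usp44, a deubiquitinase of H2B, was at 1.64 and 1.11 CPM at d0 in shLacZ and shDis3l2 and at 64.4 and 70.1 CPM at d2. It was at 9.13 and 1.18 CPM at d8 and 11.8 and 3.48 CPM at d12, where the ratio was 0.294 (0.197 to 0.428). Its difference changed by -2.18 ± 0.46 (SE) on the log2 scale (edgeR adjusted p = 0.0339). It was the 1 of 14 tested genes of the list that passed, beside 2.09% of all genes toward lower. Usp22, the relative of Usp51 in the SAGA complex, was at 169 and 207 CPM at d12, a ratio of 1.22. Usp27x, the other relative that binds ATXN7L3 and ENY2, was at 18.7 and 14.7 CPM, a ratio of 0.789. The median of the list was -0.03, beside 0.05 over all compared genes, and its summed level was 866 CPM in shLacZ and 910 in shDis3l2.

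**Figure D3:**
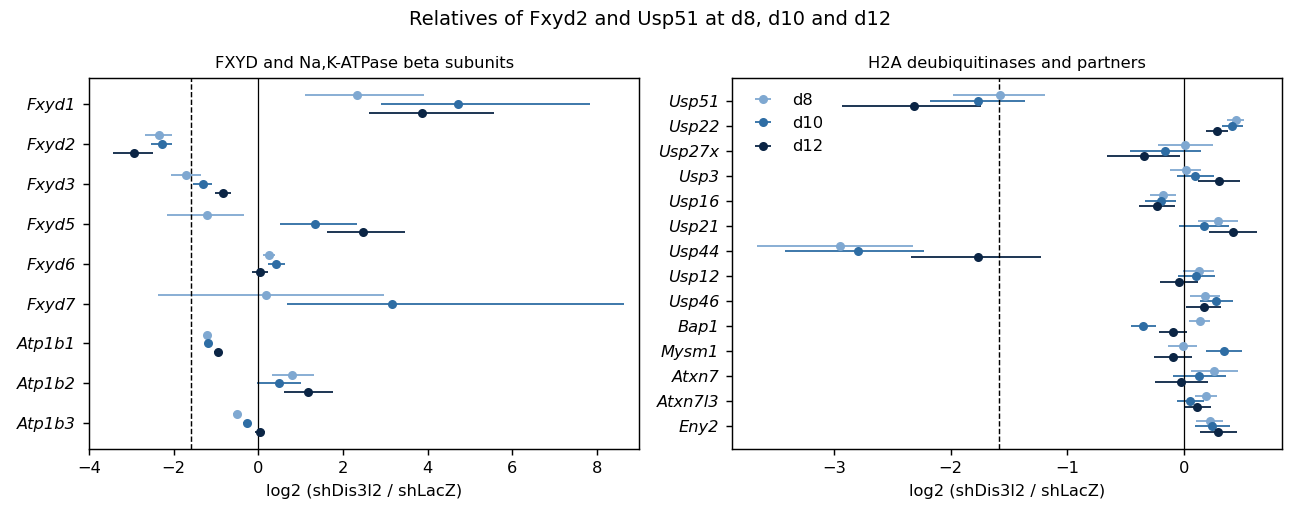
Difference between the lines as log2 of shDis3l2 over shLacZ (x) at d8, d10 and d12 (light to dark blue) for the FXYD and pump beta subunit genes and for the genes of the Usp51 list (y) with at least 1 CPM at d12, with 95% intervals as bars. The dashed line marks a 3-fold lower level, points with 0 reads in a library are left out, and at d12 only Fxyd2 on the left and Usp51 and Usp44 on the right lie beyond the line.

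Markers of several cell types moved in the same libraries as the members. Visceral endoderm is the polarised extraembryonic epithelium that surrounds EBs. The summed level of 16 of its markers was lower in shDis3l2 on every day, and by more from d4 on. Its ratio was 0.412, 0.243, 0.302, 0.320 and 0.394 on the 5 days from d4 to d12, with 8173 and 3222 CPM at d12. The sum of 10 epithelium markers was at 1894 and 964 CPM at d12, a ratio of 0.509. The sum of 18 pluripotency genes was at ratios of 0.333 at d6, 0.286 at d8 and 0.389 at d10 and 0.729 at d12. The sum of 10 mesenchyme markers rose far more in shDis3l2, to 1468 and 16815 CPM at d12, a ratio of 11.5. Such sums are carried by their highest genes, and the collagen gene Col3a1 alone was at 493 and 7939 CPM at d12. Of the 10 mesenchyme markers 7 were at least 3-fold higher at d12, beside 8.07% of all genes, with a median of 3.17 on the log2 scale. All 4 lists were read in every library of d6 to d12, and none of their genes was at 0 reads in both lines on those days.

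Over all genes, the test of the change called 2.09% toward lower in shDis3l2 and 1.65% toward higher. In that test 12 of 18 pluripotency genes passed toward lower and 0 toward higher. Among them were the core factor Pou5f1 at -3.10 ± 0.25 (SE) and Utf1, a chromatin protein of mESCs, at -3.88 ± 0.28 on the log2 scale (edgeR adjusted p = 0.00122 for each). Of 16 visceral endoderm markers 3 passed toward lower, and of 10 epithelium markers 3, among them the E-cadherin gene Cdh1 at -0.89 ± 0.18 (edgeR adjusted p = 0.0310). Of 10 mesenchyme markers 7 passed toward higher, among them the collagen gene Col3a1 at 4.71 ± 0.68 (edgeR adjusted p = 0.00988) and the proteoglycan gene Lum at 6.42 ± 0.95 (edgeR adjusted p = 0.0131). Of the other lists, 2 of 9 neural and 1 of 8 blood markers passed toward higher and none of 8 cardiomyocyte or 8 endothelium markers passed in either direction. The levels at d12, outside this test, differed from these calls. At least 3-fold higher were 4 of 7 compared cardiomyocyte, 5 of 6 blood, 1 of 8 endothelium and 0 of 8 neural markers, beside 8.07% of all genes. Neural markers had a median of -1.34 on the log2 scale, with 2 of 8 at least 3-fold lower, beside 1.5% of all genes. The part of these cell types in the deficits of Fxyd2, Vrtn and Usp51 was not tested.

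**Figure D4:**
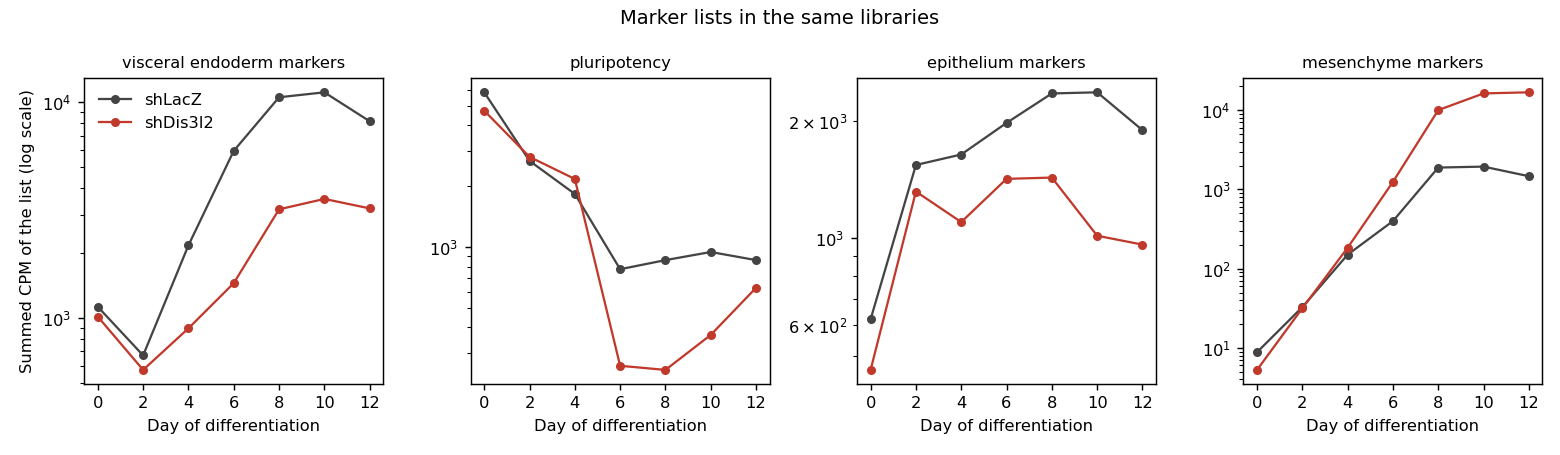
Summed CPM of 4 marker lists on a log axis (y) by day of differentiation (x) in shLacZ (grey) and shDis3l2 (red), 1 library per point. Visceral endoderm and epithelium markers lie lower in red on most days and by more from d4, pluripotency genes dip in red at d6 and d8 and rise again by d12, and mesenchyme markers climb to 16815 CPM in red at d12 beside 1468 in grey.

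The genes most like each member were sought among 12858 protein-coding genes by Pearson's r of log2(CPM + 1) over the 14 libraries. Those nearest to Fxyd2 were Rasgef1a (0.97), Jup (0.94), Snx3 (0.94), Ehd1 (0.94) and Llgl2 (0.93). Those nearest to Vrtn were Api5 (0.98), Utp15 (0.97), Etf1 (0.97), Ubqln1 (0.97) and Taf4b (0.97), and those nearest to Usp51 were Glul (0.97), Lsr (0.97), Ap1s2 (0.96), Sfmbt1 (0.96) and Nudt11 (0.95). They followed the course over days more than the difference between the lines: their ratios at d12 ran from 0.511 for Rasgef1a to 0.901 for Api5, and none was at least 3-fold lower. Ranked by Spearman's rho in place of Pearson's r, 2 of 5, 1 of 5 and 0 of 5 of these genes were named again.

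Neighbouring genes were read in the same way. Among compared protein-coding genes within 1 Mb, the median difference at d12 was 0.08 on the log2 scale over 31 genes around Fxyd2, 0.04 over 39 around Vrtn and -0.11 over 15 around Usp51, beside 0.05 over all genes. Of these neighbours 0, 2 and 0 were at least 3-fold lower at d12, beside 1.5% of all genes. At d6, when Fxyd2 had its lowest ratio, 4 of its 28 compared neighbours were at least 3-fold lower, beside 4.23% of all genes, and at d8 3 of 29, beside 3.71%. At d10, when Vrtn had its lowest ratio, 0 of 38 around Vrtn were. Over the 509 compared genes of the X chromosome, which carries Usp51, the median was 0.13.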

How the data were processed

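PolyA+ RNA of 14 libraries, 1 per line and day, was sequenced on a NextSeq 500. The authors aligned the reads with Subread 1.6.3 to GRCm38 (Ensembl release 88) and counted them per gene with featureCounts 1.6.3. The deposited counts are whole reads per gene without normalization, and the strand setting is not given in the sources used here. The deposited CPM values, which the authors made with edgeR, equal the count plus 0.25 as CPM over the 16181 listed genes, within 0.001% for every value, with no scaling between libraries.

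Here CPM was taken from the counts and the totals of the libraries, with 0.25 added as a prior in proportion to library size. RPKM was that CPM per kilobase of the deposited gene length, which the authors' count table gives. A gene was lower on a day at a ratio of at most 1/3, over protein-coding genes with at least 1 CPM in 1 of the 2 libraries of the day. With 1 library per line and day there was no test of single days. Intervals and floors (3 counts) cover counting error only, since PCR copies of a molecule are counted as reads, and the shallowest library held 7178712 reads and the deepest 39888099.

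The fits were made in R 4.3.3 with edgeR 4.0.16, by its quasi-likelihood F test after filterByExpr and TMM with Benjamini-Hochberg adjustment, on all genes and the 10 libraries of d0 to d8, with day as a block, and DESeq2 1.42.0 as alternative. The SE is the log2 difference over the root of F. Replicate libraries of a line and day were not analysed here, so the p-values measure the spread between days of 1 series. Other steps used Python 3.11.15 with scipy 1.17.1, numpy 2.4.6, matplotlib 3.10.9 and pandas 2.3.3. Simulated data served to test the fits, the fold criterion and the intervals. Alternatives were other scalings, filters and tools, protein-coding genes alone and each day left out.

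Gene types came from GENCODE M21, in which 50462 of 50686 genes were found, and from the deposited CPM table. The 3 members, 12 gene lists (151 genes, all matched) and 9 motifs were chosen with earlier results of these data known. Genes named singly are the members, the 5 most like each, Dis3l2, Xlr4b, the FXYD and Na,K-ATPase genes, Usp22 and Usp27x, and list genes called by a fit or at least 3-fold changed at d12. Umod, Cldn16 and Aqp2 were named after their values were seen. For part of these genes no value is printed, and they enter as counts. The columns of the count table headed by the knockdown line's short name were taken as shDis3l2, as in the study's own table of the same values.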

Additional observations from a re-analysis of the deposited data

Results flagged for a closer look

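For 10 of the list genes named above, the difference between shDis3l2 and shLacZ changed from the early days (d0, d2 and d4) to d6 and d8. Each had an adjusted p under 0.05 in the interaction test in edgeR, in which days stand in for replicates. List genes were named partly because a fit called them, so that these 10 are not a tally. Dis3l2, Xlr4b and the genes most like the members were not checked in this way. Fxyd2 was the one member among the 10, with a change of -3.74 on the log2 scale (edgeR adjusted p = 0.0149). Its ratio went from 2.47 at d0 to 0.0908 at d6. The mesoderm genes T and Fgf8 changed by -2.68 and -4.19, Usp44 by -2.18, the pluripotency genes Pou5f1 and Utf1 by -3.10 and -3.88 and Cdh1 by -0.89. Notch2 changed by 0.83, Col3a1 by 4.71 and Lum by 6.42. No group held more than 1 library, so no library could be set against others of its group.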

How the results depend on the processing

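The ratios of the members kept their direction at every day from d6 under TMM scaling, DESeq2 size factors and the deposited CPM. TMM and DESeq2 size factors moved the median of all genes at d0 from -0.32 to -0.12 and 0.07 on the log2 scale, and the ratio of Fxyd2 at d0 from 2.47 to 2.82 and 3.24. At a ratio of at most 1/2 the parting day became 4 for Fxyd2, 6 for Vrtn and 6 for Usp51, and with the upper bound under 1 it was 6 for Vrtn and 6 for Usp51. With TMM or DESeq2 size factors, Usp51 parted at 8 and not 10, and 3 of 3 members were lower at d8. Over d0 to d8, DESeq2 called 286 genes and edgeR without a filter 787, where edgeR called 0, also with any day left out (0 to 0), and without a filter Vrtn was called (adjusted p = 0.00878). For the change of the difference, 732 genes were called, 414 with library totals, 1387 with DESeq2 and 1914 without a filter. Leaving out a day gave 48 to 943 genes: 48 without d8, 218 without d2, 255 without d6 and 943 without d0. The causes were not tested. At d4 Fxyd2 had 8 and 9 reads, and at d0 Usp51 had 2 and 0, which limits what those days can show. The main fits paired the lines within each day, and the labels carry no replicate numbers for any other pairing.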
